A study of Mus musculus with 6 samples.

Results

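The genes described here are 10 regulators of epithelial-mesenchymal transition (EMT), chosen by name from the 56953 genes of one RNA-seq count table by a rule that uses no measured value, though with earlier results of these data known. The 6 mesenchymal factors are Zeb1, Zeb2, Snai1, Snai2, Twist1 and Twist2. The 4 epithelial antagonists are Grhl2, Ovol1, Esrp1 and Esrp2. All 10 were found in the table by their Ensembl identifiers. The study sequenced mRNA from 6 murine pancreatic ductal adenocarcinoma (PDAC) cell lines, KPC142, KPC180, KPC469, KPC490, KPC630 and KPC850. The samples are cancer cells taken from KPC mice, a genetically engineered model of pancreatic cancer, and the labels give KPC as their strain. The series describes its lines as drawing few or many CD8+ T cells, but the labels name no such class, no treatment and no batch for any line. Each line is 1 library, so each stands alone here, and no difference between lines could be set against the spread between cultures.

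ZEB, SNAIL and TWIST proteins are DNA-binding repressors and activators that lower E-cadherin and other junction genes when epithelial cells take on mesenchymal traits. ZEB and SNAIL proteins are zinc finger factors that bind E-box letters, whereas TWIST proteins are basic helix-loop-helix factors that bind DNA with E protein partners. GRHL2 and OVOL1 are epithelial transcription factors that restrain ZEB expression, ESRP1 and ESRP2 impose epithelial splicing, and the miR-200 family of microRNAs blocks ZEB mRNAs. In pancreatic cancer cells these factors are studied for their part in invasion, drug resistance and plasticity.

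The miR-200 sequences and their matches in Zeb2 are shown first, because this microRNA family is the best-known direct link between the ZEB factors and an epithelial state. Mature sequences are from RefSeq (GRCm38.p6), with the seed (bases 2 to 8) in capitals. The family falls into 2 seed groups that differ in 1 base. The first 3 below share AAUACUG and the last 2 share AACACUG.
mmu-miR-200b-3p: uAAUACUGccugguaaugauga
mmu-miR-200c-3p: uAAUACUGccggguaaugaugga
mmu-miR-429-3p: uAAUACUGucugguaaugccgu
mmu-miR-200a-3p: uAACACUGucugguaacgaugu
mmu-miR-141-3p: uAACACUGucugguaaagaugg
The 3′ untranslated region of Zeb2 (4941 bases in the annotation used here) holds 5 matches to the first seed, written CAGTATT in capitals, searched on the mRNA strand. They are given with GRCm38 positions on the minus strand of chromosome 2 and the neighbouring bases of the mRNA.
Zeb2 site at chr2:44988173-44988192: actaccatacatCAGTATTt
Zeb2 site at chr2:44988108-44988127: actacagtgcatCAGTATTa
Zeb2 site at chr2:44987746-44987765: aagcacccgtgtCAGTATTa
Zeb2 site at chr2:44987661-44987680: cattaattttgtCAGTATTa
Zeb2 site at chr2:44987527-44987546: tactgtagtgtaCAGTATTa
The same region holds 4 matches to the other seed, CAGTGTT. Among 1087 regions of 0.8 to 1.25 times its length, itself included, 38.5% held CAGTATT at least once and 0.276% (3 regions) held it at least 5 times. For CAGTGTT, 50.9% held 1 or more and 1.75% held at least 4. In Zeb1, whose 3′ untranslated region has 2401 bases, the matches also numbered 5 and 4. Of 2851 regions of like length, again with the gene itself included, 0.0351% held CAGTATT that often, which is Zeb1 alone. For CAGTGTT, 0.175% (5 regions) held as many. The 5 miR-200 genes had 0 counts in all 6 lines, and libraries of polyadenylated RNA do not measure mature microRNAs, so the levels of these regulators are not known here.

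Promoter windows were compared for the factors found in the RefSeq promoter table, since ZEB and SNAIL proteins bind the E-box CAGGTG and the SNAIL genes are themselves described as its targets. The table matched 4 of the 10 genes, Twist1, Twist2, Snai1 and Zeb2, the last with 4 start sites. Each window is the 250 bases before the start (GRCm38.p6), and CAGGTG or its reverse complement CACCTG was searched on both strands. The Snai1 window held 1 match, in capitals below, and the windows of Twist1, Twist2 and Zeb2 held none. Across all 32851 promoter windows 17.2% held a match. Twist1 and Twist2 are shown beside Snai1 because their levels varied most between the lines.
Snai1, chr2:167537945-167538194, plus strand: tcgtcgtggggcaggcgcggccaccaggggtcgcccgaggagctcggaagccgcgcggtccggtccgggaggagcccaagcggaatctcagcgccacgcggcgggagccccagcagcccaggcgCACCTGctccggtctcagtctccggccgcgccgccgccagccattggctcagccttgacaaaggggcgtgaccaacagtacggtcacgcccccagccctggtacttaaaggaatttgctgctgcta
Twist1, chr12:33957421-33957670, plus strand: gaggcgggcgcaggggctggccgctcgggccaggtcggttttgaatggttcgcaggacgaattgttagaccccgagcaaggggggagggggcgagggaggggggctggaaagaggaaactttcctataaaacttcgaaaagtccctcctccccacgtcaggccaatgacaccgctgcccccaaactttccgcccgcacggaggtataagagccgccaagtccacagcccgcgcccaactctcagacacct
Twist2, chr1:91801211-91801460, plus strand: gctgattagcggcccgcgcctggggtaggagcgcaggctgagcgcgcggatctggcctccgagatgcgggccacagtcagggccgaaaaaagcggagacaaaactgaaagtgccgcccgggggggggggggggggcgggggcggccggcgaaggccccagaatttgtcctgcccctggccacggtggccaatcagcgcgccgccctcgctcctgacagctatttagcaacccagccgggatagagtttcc
All 3 windows were rich in G and C, with 70.0% in Snai1, 62.4% in Twist1 and 68.8% in Twist2 against a median of 52.4% over all promoters. They held 27, 18 and 23 CpG pairs, against a median of 6.0. The 4 Zeb2 windows, not printed, lay nearer these medians, with 49.6% to 57.6% G and C and 6 to 14 CpG pairs. A match is only a run of letters, and its absence concerns these windows alone.

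The libraries held 16471558 to 18701274 counts, and their scaling factors lay between 0.986 and 1.01. Levels are counts per 1000000 (CPM) after this scaling, and 1 count was worth 0.0532 to 0.0607 CPM. Ratios between lines carry 95% intervals from an exact conditional binomial calculation, which cover counting error only. Keratin genes of simple epithelia marked every line. Krt8 ran from 843 CPM in KPC469 to 4179.9 CPM in KPC850, and Krt19 from 837 CPM in KPC180 to 2755 CPM in KPC630. Cdh1 (E-cadherin) stood at 298 to 767 CPM. Epcam was low, from 0.243 CPM in KPC180 to 10.5 CPM in KPC630. Markers of other cell types were scarce. The 10 fibroblast markers summed to 1.02 CPM in KPC142 to 10.8 CPM in KPC850, with 6 below 1 CPM in every line and Dcn, Lum and Thy1 at 0 counts. The 8 leukocyte and macrophage markers summed to 1.57 to 4.21 CPM, with Adgre1 and Tyrobp at 0 counts. The 6 endothelial markers summed to 0.218 to 2.72 CPM, with Emcn at 0 counts. In KPC469, where several mesenchymal factors were highest, these 3 sums were 9.32, 3.0 and 0.218 CPM. The 8 epithelial markers, Krt8, Krt19, Cdh1 and Epcam among them, summed to 2902 CPM in KPC469, the lowest line. Their sums in the other lines were 7145 to 12089.9 CPM.

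Of the 10 regulators, 6 reached 10 CPM in at least 1 line: Zeb1, Zeb2, Snai2, Twist1, Twist2 and Esrp2. The other 4 were near the limit of detection, with highest levels of 1.20 CPM for Snai1, 1.58 CPM for Grhl2, 1.39 CPM for Esrp1 and 0.117 CPM for Ovol1. Every line therefore carried mRNA of Zeb1, Zeb2, Snai2 and Esrp2, and the Twist genes divided the lines. The plot of all 10 genes by line shows these levels on a common scale.

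**Figure D1:**
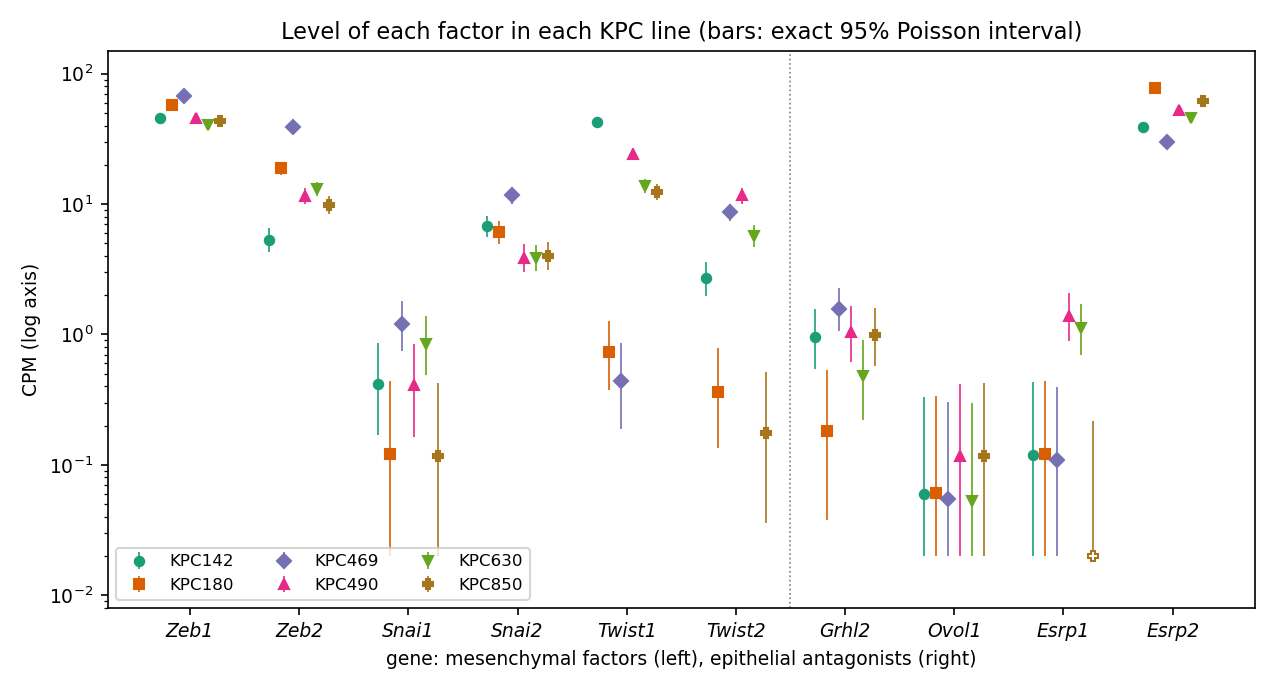
Level of each of the 10 regulators (CPM, log axis) in each of the 6 KPC lines, 1 library per line. Bars are exact 95% Poisson intervals, cut at 0.02 CPM at the bottom, and the unfilled marker is Esrp1 in KPC850 at 0 counts. Zeb1 and Esrp2 stay between 30.1 and 77.9 CPM in all lines, while Twist1 and Twist2 spread over more than 1 decade.

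Zeb1, which represses E-cadherin, was the most even of the mesenchymal factors. Its level was 67.8 CPM in KPC469, 57.7 in KPC180, 45.7 in KPC142, 45.5 in KPC490, 43.6 in KPC850 and 40.6 in KPC630. KPC469 stood above KPC180 by 1.18-fold (1.08 to 1.28) and KPC180 above KPC142 by 1.26-fold (1.15 to 1.39). Among the 4 lower lines, KPC142, KPC490, KPC850 and KPC630, the interval of each neighbouring ratio held 1, although KPC142 lay above KPC630 by 1.13-fold (1.02 to 1.25). From the lowest to the highest line Zeb1 changed 1.67-fold (1.53 to 1.83). That range exceeded the range of 33.3% of the 10234 genes that reached 10 CPM in a line, whose median range was 1.91-fold. Zeb1 thus varied less between these lines than the median gene.

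Zeb2, the close relative of Zeb1 with the same 2 zinc finger clusters, varied more. It measured 38.8 CPM in KPC469, 18.9 in KPC180, 13.0 in KPC630, 11.6 in KPC490, 9.85 in KPC850 and 5.33 in KPC142, from 89 to 713 counts. KPC469 was highest and KPC142 lowest, and neither overlapped its neighbour: KPC469 exceeded KPC180 by 2.06-fold (1.80 to 2.36) and KPC850 exceeded KPC142 by 1.85-fold (1.42 to 2.42). KPC180 stood above KPC630 by 1.45-fold (1.22 to 1.72), while KPC490 was separated neither from KPC630 nor from KPC850. The whole range was 7.28-fold (5.84 to 9.19), larger than in 90.3% of genes. This range rests on its 2 end lines, and it was 3.94-fold without KPC142 and 3.54-fold without KPC469. The antisense RNA Zeb2os, which is transcribed from the other strand of the locus, measured 0.0532 to 0.218 CPM.

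Per kilobase of transcript, Zeb1 was the more abundant of the pair in every line. Zeb1 measured 6.99 to 11.7 CPM per kb and Zeb2 1.32 to 9.61 CPM per kb. The levels came closest in KPC469, at 11.7 and 9.61 CPM per kb, and were farthest apart in KPC142, at 7.87 and 1.32 CPM per kb. The lengths used, medians over basic transcripts, were 5801 bases for Zeb1 and 4042 bases for Zeb2. That Zeb2 length is shorter than the 3′ untranslated region of 4941 bases given above. The comparison between the 2 genes therefore depends on the lengths used.

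Snai2 (Slug), which represses epithelial genes and marks neural crest and basal cells, was present in all lines at low levels. It measured 11.7 CPM in KPC469, 6.77 in KPC142, 6.07 in KPC180, 4.02 in KPC850 and 3.89 in both KPC490 and KPC630. KPC469 exceeded KPC142 by 1.72-fold (1.36 to 2.18). KPC142 and KPC180 were not separated, KPC180 lay above KPC850 by 1.51-fold (1.10 to 2.08), and the 3 lowest lines were not separated from one another. The range was 3.0-fold (2.29 to 3.97), and 1.74-fold without KPC469. Snai1 (Snail), the first of these repressors to be tied to E-cadherin, gave only 7, 2, 22, 7, 16 and 2 counts in the lines in the order KPC142, KPC180, KPC469, KPC490, KPC630 and KPC850. KPC469 held the most, at 1.20 CPM, and KPC850 the least, at 0.117 CPM, a ratio of 10.3 with an interval from 2.53 to 90.2. No neighbouring lines of Snai1 were separated at this depth. SNAIL protein is short-lived and controlled by degradation, which mRNA levels do not show.

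Twist1, a helix-loop-helix factor of mesoderm and neural crest, split the lines. It measured 42.4 CPM in KPC142, 24.3 in KPC490, 13.8 in KPC630, 12.4 in KPC850, 0.728 in KPC180 and 0.436 in KPC469. KPC142 exceeded KPC490 by 1.74-fold (1.54 to 1.97) and KPC490 exceeded KPC630 by 1.76-fold (1.50 to 2.06), while KPC630 and KPC850 were not separated. Below them came a gap of 17.0-fold (9.56 to 33.5) between KPC850 and KPC180. KPC180 and KPC469 rested on 12 and 8 counts and were not separated, with a ratio of 1.67 (0.628 to 4.71). The whole range was 97.3-fold (49.1 to 226), larger than in 97.8% of genes. It was 55.8-fold without KPC142 and 58.3-fold without KPC469. Per kilobase, Twist1 in KPC142 reached 26.1 CPM per kb, the highest value of any of the 10 genes in any line.

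Twist2, the close homologue of Twist1, had another order. It measured 11.7 CPM in KPC490, 8.66 in KPC469, 5.70 in KPC630, 2.7 in KPC142, 0.364 in KPC180 and 0.175 in KPC850. KPC490 exceeded KPC469 by 1.35-fold (1.09 to 1.67), KPC469 exceeded KPC630 by 1.52-fold (1.18 to 1.96), KPC630 exceeded KPC142 by 2.11-fold (1.48 to 3.06), and KPC142 exceeded KPC180 by 7.41-fold (3.15 to 21.2). The 2 lowest lines, KPC180 and KPC850, held 6 and 3 counts and were not separated. The whole range was 66.8-fold (22.5 to 326), and 32.1-fold without KPC850. Without KPC490 no line reached 10 CPM. Taking both Twist genes, KPC490, KPC630 and KPC142 carried each at 2.7 CPM or more, KPC469 carried Twist2 with little Twist1, KPC850 carried Twist1 with little Twist2, and KPC180 carried little of either.

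**Figure D2:**
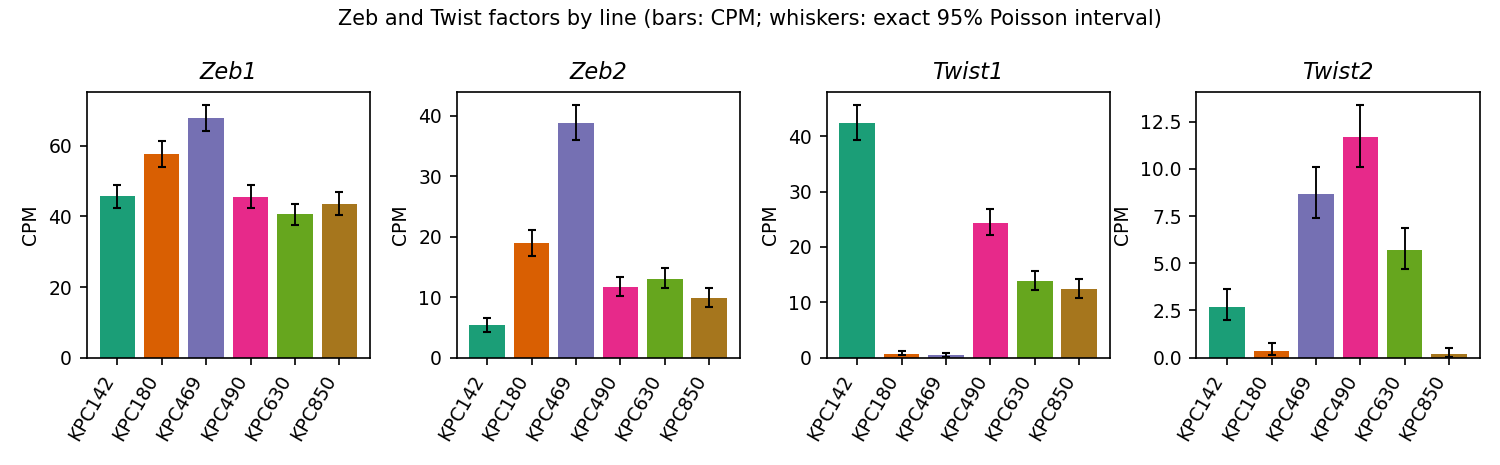
Levels of Zeb1, Zeb2, Twist1 and Twist2 in CPM (bars, from 0, each panel on its own scale) in the 6 KPC lines, 1 library per line, with exact 95% Poisson intervals as whiskers. Zeb2 peaks in KPC469 at 38.8 CPM, where Twist1 is lowest at 0.436 CPM, and Twist2 is lowest in KPC850 at 0.175 CPM.

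The antagonists Grhl2, Ovol1 and Esrp1 were close to absent. Grhl2, a grainyhead factor that maintains junction genes, gave 16, 3, 29, 18, 9 and 17 counts in the lines in the same order. Its level ran from 0.182 CPM in KPC180 to 1.58 CPM in KPC469, a ratio of 8.68 (2.69 to 44.5), and no neighbouring lines were separated. The ratio was 3.30 (1.52 to 7.92) without KPC180 and 5.74 (1.68 to 30.4) without KPC469. KPC469, the line with the most Zeb1, Zeb2 and Snai2, also had the most Grhl2 counts. Its ratio to KPC490, the next line for Grhl2, was 1.51 (0.811 to 2.89), so its place as highest is not settled. Ovol1, a zinc finger repressor of Zeb1, had 1 or 2 counts in every line, so no ratio can be given. Esrp1, the first of the epithelial splicing regulators, was detected above 2 counts in only 2 lines, with 24 counts (1.39 CPM) in KPC490 and 21 counts (1.12 CPM) in KPC630. KPC142, KPC180 and KPC469 had 2 counts each and KPC850 had none. KPC490 was at least 7.97-fold higher than KPC850, taking 3 counts as the limit that a count of 0 allows. Without KPC850 the ratio was 12.8 (3.18 to 112), over the 2 counts of KPC469. KPC630 exceeded KPC180 by 9.21-fold (2.25 to 81.0).

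Esrp2, which shares the RNA-recognition motifs of Esrp1, was in contrast well expressed. It measured 77.9 CPM in KPC180, 62.3 in KPC850, 53.1 in KPC490, 45.9 in KPC630, 39.2 in KPC142 and 30.1 in KPC469. KPC180 was highest and KPC469 lowest, and the interval of each neighbouring ratio, from 1.16-fold to 1.3-fold, lay above 1. The range was 2.59-fold (2.34 to 2.87), larger than in 73.4% of genes. Its median level was 14.0 CPM per kb, against 0.0324 CPM per kb for Esrp1. Without KPC469 the range was 1.99-fold, and without KPC180 it was 2.07-fold.

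The levels of Twist2, Ovol1 and Esrp2 are uncertain in one respect. Their deposited counts are not whole numbers, and they become whole, within 0.01 of a count, once the counts of genes on the other strand of the same locus are added, so the authors' counting divided reads between them. Twist2 shares reads with the antisense gene Gm29100. Their sums were 49, 11, 185, 221, 111 and 5 counts in KPC142, KPC180, KPC469, KPC490, KPC630 and KPC850, of which Twist2 was assigned 56.3% in KPC180 and 60.8% in KPC850 but 86.2% to 96.2% in the other 4. The sum kept the order of lines seen for Twist2, with a range of 44.0-fold in place of 66.8-fold. Ovol1 shares reads with the pseudogene Gm31166 and was assigned 2.47% to 7.58% of sums of 29 to 43 counts. Even the whole of each sum would be only 1.70 to 2.34 CPM. Esrp2 shares reads with Nfatc3, a transcription factor gene, and with 1810019D21Rik. Esrp2 was assigned 20.7% (KPC469) to 40.0% (KPC850) of sums of 132 to 264 CPM. Nfatc3 measured 113, 160.0, 109, 77.6, 81.0 and 83.1 CPM in the same order of lines and was, like Esrp2, highest in KPC180. The summed range of Esrp2 and its partners was 2.0-fold. KPC469 did not have the lowest sum: it held 2670 counts, against 2485 in KPC630, whose library was larger. The lowest place of KPC469 for Esrp2 thus depends on how the counting divided these reads. The library kit keeps strand, and whether the counting used it is not given in the sources used here. The counts of the other 7 regulators were whole.

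**Figure D3:**
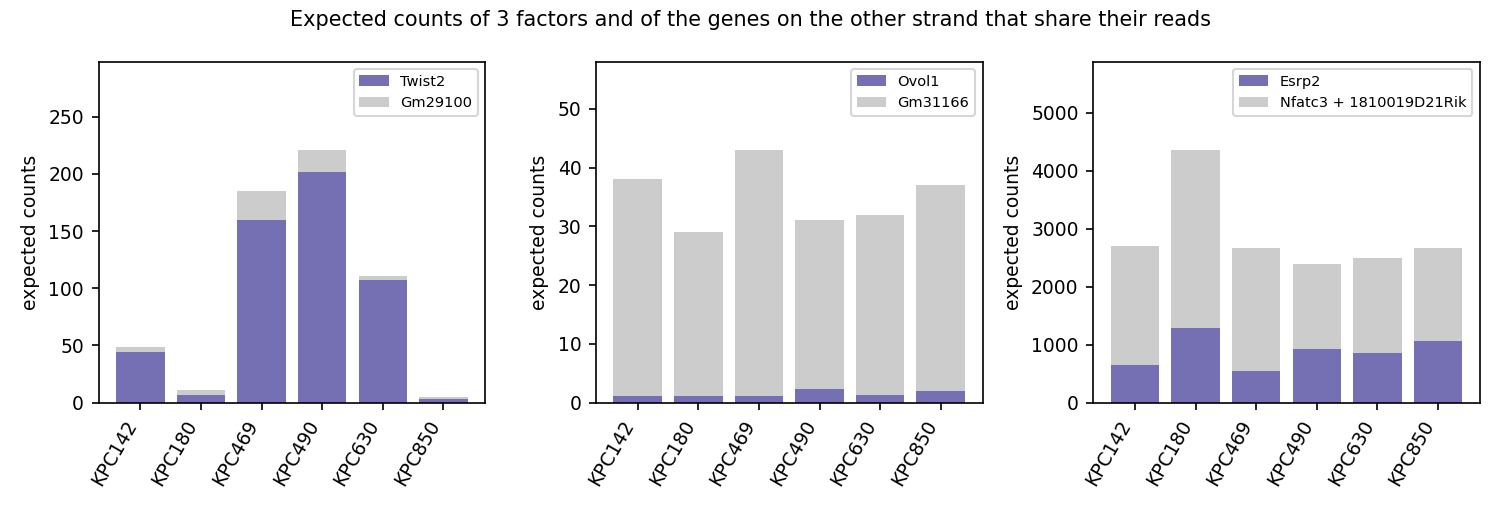
Expected counts (bars, from 0) of Twist2, Ovol1 and Esrp2 and, stacked in grey, of the genes on the other strand with which they share reads, in the 6 KPC lines. Twist2 holds most of its sum in every line, Ovol1 at most 7.58% and Esrp2 20.7% to 40.0%.

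Of the 6 regulators that reached 10 CPM, 3 (Zeb2, Twist1 and Twist2) varied at least 4-fold between lines, where 15.5% of all 10234 genes did so. Zeb2, Twist1, Twist2 and Snai2 reached 10 CPM only through the lines in which they were high. For Twist2 that was KPC490 alone, and for Snai2 KPC469 alone. The counts here thus describe these genes and support nothing further. Zeb1, Zeb2 and Snai2 were highest in KPC469, 3 of the 6, as were 21.4% of all genes. Twist1 and Esrp2 were lowest in KPC469, 2 of the 6, as were 20.0% of all genes. KPC469 thus combined the most Zeb1, Zeb2 and Snai2 mRNA with the least Twist1 and the least Esrp2 as counted. For Esrp2 this place depends on how shared reads were divided. KPC180, next after KPC469 for Zeb1 (57.7 CPM) and Zeb2 (18.9 CPM), had the most Esrp2 as counted (77.9 CPM). The plot of ranges sets these 6 genes against the rest.

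**Figure D4:**
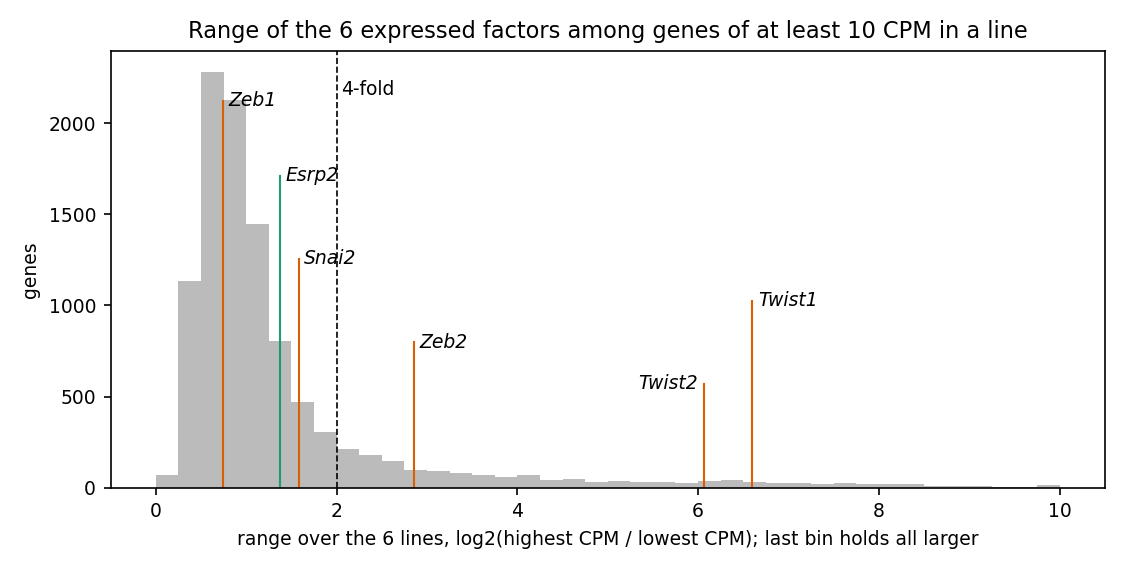
Histogram of the range over the 6 lines (log2 of highest over lowest CPM, x axis) for the 10234 genes that reached 10 CPM (number of genes, y axis). Vertical lines mark the 6 regulators, whose heights carry no meaning, and the dashed line is 4-fold. Zeb1 lies below the median of 0.93, and Twist1 and Twist2 lie in the far tail.

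The mesenchymal factors did not move as one. Over the 6 lines, log2 levels of Zeb1 and Zeb2 gave Pearson's r of 0.80 and Spearman's rho of 0.49, and Zeb1 and Snai2 gave 0.87 and 0.89 (n = 6 lines that share 1 library preparation protocol, given as descriptions). Without KPC180 and KPC469, the lines farthest from the median of Zeb1, r was -0.63 for Zeb2 and 0.52 for Snai2, so the first relation rests on those lines. For Twist1 and Twist2 no correlation with the other regulators is given, because their lines fall into separate clusters. In order, the 2 lines with most Zeb2, KPC469 and KPC180, were those with least Twist1, and the line with most Twist1, KPC142, had least Zeb2. Twist2 broke this order, being high in KPC469 and low in KPC180. Summed over the 6 mesenchymal genes, the level was 129 CPM in KPC469, 103 in KPC142, 97.4 in KPC490, 83.9 in KPC180, 77.9 in KPC630 and 70.2 in KPC850.

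A balance was formed for each line as the mean log2 level of the 6 mesenchymal factors minus that of the 4 antagonists, each gene centred on its mean over the lines. KPC469 (0.59, counting SE 0.30) and KPC142 (0.49, SE 0.30) were on the mesenchymal side. KPC850 (-0.56, SE 0.36) and KPC180 (-0.53, SE 0.36) were negative through low mesenchymal means, -0.74 and -0.94. Their antagonist means, -0.18 and -0.41, were also below 0, and that of KPC180 was the lowest of all lines. KPC630 (0.17, SE 0.26) and KPC490 (-0.16, SE 0.23) lay between. Each of these balances was within about 2 counting SEs of 0, so their signs are weakly drawn. Different genes peaked in the 2 lines on the mesenchymal side, Twist1 in KPC142 and Zeb1, Zeb2 and Snai2 in KPC469. Snai1 also had its most counts in KPC469, but was not separated there from KPC630. KPC490 had both the highest mesenchymal mean (0.55) and the highest antagonist mean (0.71), the latter with Esrp1 at 24 counts. With only the genes that reached 5 CPM in a line, Esrp2, whose reads are shared with other genes, is the sole antagonist. The balance was then -1.57 in KPC180, -0.99 in KPC850, 0.39 in KPC630, 0.55 in KPC490, 0.66 in KPC142 and 0.96 in KPC469. The distance between the extreme lines was 1.15 with all 10 genes and 2.53 with these.

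The genes whose profile was most like that of each regulator with a range of at least 4-fold are listed with Pearson's r of log2 levels over the 6 lines, without a test. For Twist1 and Twist2, whose lines fall into separate clusters, r serves only to rank the genes by likeness. For Zeb2 these were Cluap1 (r = 0.997, 8.51 to 10.2 CPM), Pgm2l1 (0.992, 14.1 to 39.1 CPM) and Ppid (0.990, 122 to 238 CPM). Pgm2l1, like Zeb2, was lowest in KPC142 and highest in KPC469. For Twist1 they were Lrrfip2 (0.992, 28.7 to 46.7 CPM), Larp1b (0.988, 25.1 to 41.0 CPM) and Ss18l2 (0.985, 7.90 to 13.5 CPM). For Twist2 they were Rabac1 (0.988, 30.4 to 54.9 CPM), Tmem229b (0.988, 0.350 to 11.4 CPM) and Scaf1 (0.986, 116 to 152 CPM). Apart from Tmem229b, these genes changed far less in size than the regulator. With 6 points, 40, 31 and 16 genes reached an r of 0.95 with Zeb2, Twist1 and Twist2.

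Relatives of the 10 genes were all below 10 CPM. Snai3, the third SNAIL gene, measured 8.51 CPM in KPC142, 5.52 in KPC180, 4.6 in KPC850, 4.47 in KPC490, 4.10 in KPC630 and 0.654 in KPC469. It was thus lowest in KPC469, where Snai2 was highest. Its range of 13.0-fold (7.22 to 25.8) was 2.08-fold without KPC469 and 8.45-fold without KPC142. Grhl1 was likewise lowest in KPC469, at 1.31 CPM, and highest in KPC142, at 6.89 CPM. Grhl3 ran from 0.0599 CPM, 1 count, in KPC142 to 3.50 CPM in KPC850, a ratio of 58.4 (10.1 to 2343), and 16 (5.95 to 60.8) without KPC142. Ovol2, which represses Zeb1, reached 1.45 CPM in KPC490 and 0.120 to 0.586 CPM elsewhere. Its highest line was also the highest for Esrp1. Ovol3 had 0 counts in every line.

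The partners and regulators of these factors were expressed in all lines. Of 7 E protein and Id genes, 6 reached 10 CPM and none of them varied 4-fold, as 15.5% of all genes did. Tcf4, an E protein that binds TWIST, was highest in KPC469 at 91.0 CPM, like Zeb2, and lowest in KPC142 at 29.5 CPM, where Twist1 was highest. Id1, which sequesters E proteins, showed the reverse, with 318 CPM in KPC142 and 149 CPM in KPC469. Tcf3 ran from 64.5 CPM in KPC142 to 149 CPM in KPC490, and Id2 from 129 CPM in KPC850 to 261 CPM in KPC142. All 16 genes of Snail turnover and of the corepressors reached 10 CPM, none varied 4-fold, and their median log2 range was 0.74 against 0.93 for all genes. The widest were Usp27x, a deubiquitinase of SNAIL (3.54-fold), Ezh2 (2.53-fold), Rcor1 (2.40-fold) and Btrc (2.34-fold).

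Other EMT factors had 7 of 14 genes at 10 CPM and 3 past 4-fold (15.5% of all genes). Prrx1, a mesenchymal homeobox factor, was highest in KPC469 with the ZEB genes, at 90.6 CPM, with 20.7 in KPC180, 6.10 in KPC490, 2.08 in KPC630, 0.659 in KPC142 and 0.291 in KPC850. Its range was 311-fold (133 to 958), and 71.0-fold without KPC469 or 137-fold without KPC850. Hmga2, a chromatin protein, ran from 88.6 CPM in KPC142 to 519 CPM in KPC180 (5.86-fold, 3.26-fold without KPC142). Sox9 ran from 4.55 CPM in KPC142 to 43.4 CPM in KPC469 (9.52-fold, 4.33-fold without KPC142), and Sox4 varied 2.47-fold. Of 15 genes of the TGF-beta pathway, a known inducer of ZEB and SNAIL factors, 13 reached 10 CPM and 4 passed 4-fold (15.5% of all genes), with a median log2 range of 1.43. Bmp4 (87.3 CPM), Inhba (86.1 CPM) and Tgfb3 (32.4 CPM) were highest in KPC469. Over all lines Bmp4 varied 53.3-fold and Tgfb3 17.5-fold. Without KPC469 these ranges were 6.51-fold and 7.08-fold.

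Of 24 junction genes, many of them known targets of these regulators, 16 reached 10 CPM, 8 passed 4-fold, and the median log2 range was 2.04. Of all genes 15.5% passed 4-fold. Of those 16, KPC469 was lowest for 7, against 20.0% of all genes, and highest for 1, against 21.4%. Cdh1 itself, the classic target of the ZEB and SNAIL repressors, varied 2.57-fold (2.49 to 2.66), from 298 CPM in KPC490 to 767 CPM in KPC850, and stood at 399.8 CPM in KPC469. Only KPC490 lay below KPC469 for Cdh1. The line with the most Zeb1 and Zeb2 was thus low, but not lowest, for Cdh1. KPC180, next after KPC469 for both ZEB genes, had 725 CPM of Cdh1, and only KPC850 lay above it. Cldn3, a tight junction claudin, had 0 counts in KPC180 and 90.7 CPM in KPC630, at least 498-fold higher, and its range was 151-fold without KPC180. Tjp3 ran from 1.34 CPM in KPC180 to 67.0 CPM in KPC850 (50.2-fold, 12.4-fold without KPC850), Epcam varied 43.2-fold (15.0-fold without KPC180) and Spint1 29.6-fold (8.99-fold without KPC490 and 14.4-fold without KPC850). Epithelial identity factors passed 4-fold in 5 of 8 genes at 10 CPM (15.5% of all genes), of 13 listed, with a median log2 range of 2.67. Ehf ran from 0.425 CPM in KPC180 to 70.8 CPM in KPC850, Foxa1 from 3.06 CPM in KPC142 to 69.6 CPM in KPC490, and Klf4 from 32.7 CPM in KPC469 to 296 CPM in KPC850.

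Of 20 mesenchymal targets, 10 reached 10 CPM, 7 passed 4-fold (15.5% of all genes), and Lox, Thy1, Dcn and Spock1 had 0 counts in every line. The median log2 range of those 10 was 4.60, and KPC469 was highest for 5 (21.4% of all genes) and lowest for 2 (20.0% of all genes). Vim, the intermediate filament of mesenchymal cells, was abundant everywhere, at 1465 CPM in KPC490 to 2897 CPM in KPC469. Cdh2 (N-cadherin) measured 0.599 CPM in KPC142 and 62.8 to 157 CPM in the other lines, so its 262-fold range fell to 2.50-fold without KPC142. KPC142, the line with the most Twist1 and the least Zeb2, was thus the one with little Cdh2. Acta2 reached 21.6 CPM in KPC630 alone (98.9-fold, 2.47-fold without it), Col5a1 ran from 3.32 CPM in KPC850 to 123 CPM in KPC469 (37.0-fold, 9.17-fold without KPC850) and S100a4 from 33.3 CPM in KPC630 to 1222 CPM in KPC469.

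Genes spliced by ESRP proteins were read at gene level, which does not show isoforms. Of 9 such genes, 8 reached 10 CPM and 2 passed 4-fold (15.5% of all genes), with a median log2 range of 0.87. Fgfr1 measured 101 CPM in KPC469, the line with the least Esrp2 as counted. It was at 4.05 CPM in KPC630 and at 0.0599 CPM, 1 count, in KPC142, a ratio of 1690.3 (303 to 66800.4) between KPC469 and KPC142. Without KPC469 that range was 67.5-fold, and without KPC142 it was 869-fold. KPC142, with the least Fgfr1, had the next least Esrp2 after KPC469, at 39.2 CPM as counted. Enah was at 3.30 CPM in KPC142 and at 26.8 to 76.4 CPM in the others (23.2-fold, 2.85-fold without KPC142). Slk varied 1.97-fold and Ctnnd1 1.83-fold. Fgfr2, whose epithelial isoform depends on ESRP, was at most 0.479 CPM. Across the 13 lists other than the 10 regulators, 33 of 89 genes at 10 CPM passed 4-fold, which is 37.1% against 15.5% of all genes.

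**Figure D5:**
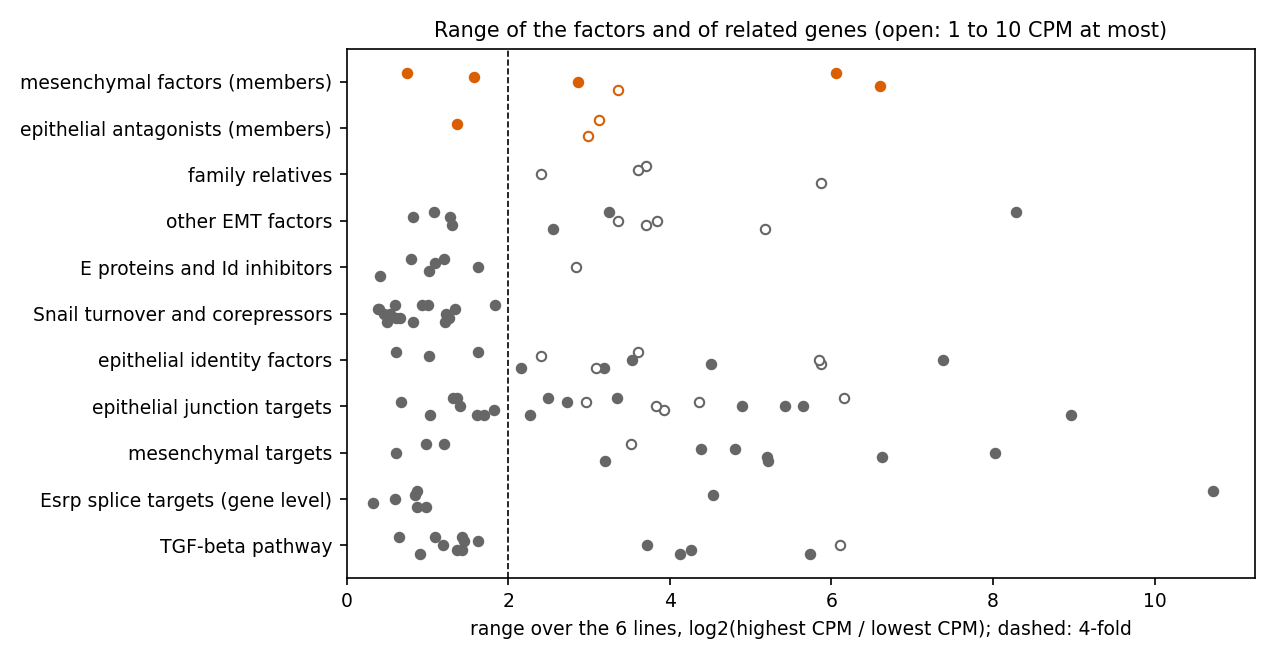
Range over the 6 lines (log2 of highest over lowest CPM, x axis) of each gene of the regulator sets (orange) and of 9 related lists (grey), 1 dot per gene; unfilled dots are genes whose highest line lies between 1 and 10 CPM, genes below that are left out, and the dashed line is 4-fold. All turnover and corepressor genes lie below 4-fold, while 7 of the 10 filled mesenchymal targets lie beyond it.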

How the data were processed

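Messenger RNA of 6 KPC lines was sequenced with a kit that keeps strand, per the labels' protocols. The authors deposited 1 table of expected counts per Ensembl gene. Per the submitters' processing notes, Trimmomatic 0.36, STAR 2.7.10b, RSEM 1.3.3 and the build GRCm39 were used; how they were set is not given in the sources used here. Between 5.28% and 5.66% of values had a fractional part and were rounded. Symbols were found for 52029 of 56953 identifiers.

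Library totals were scaled by TMM factors (edgeR 4.0.16, on 11531 genes kept by filterByExpr). Range is the highest over the lowest CPM, counted where it was at least 4-fold among genes that reached 10 CPM in 1 line or more. Log2 levels used a prior count of 2. The calculations were tested on simulated data. With 1 library per line there was no group and no test. Lengths and overlaps are from GENCODE vM21 (GRCm38), and a length is the median over a gene's basic transcripts.

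The genes named are the 10 regulators, all their family relatives, up to 4 genes of each other list with at least 10 CPM and the widest range, and the 3 genes most like each regulator with at least 5 CPM and a 4-fold range. Other genes named are the cell type markers at 0 counts, and Cdh1, Vim, Fgfr2, Krt8 and Krt19, which were chosen after their values were seen. A few genes that this rule names are not reported here. The regulators and lists were chosen with earlier results of these data known. Alternatives were DESeq2 1.42.0 size factors, totals alone, counts not rounded, other filters, folds and prior counts, a median in place of a mean, and leaving out each line. Leaving out lines for the ranges and summing counts with overlapping genes were added after seeing the data.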

Additional observations from a re-analysis of the deposited data

How the results depend on the processing

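The ranges of the 6 regulators at 10 CPM, the counts past 4-fold, the balance and the r of Zeb1 with Zeb2 were recomputed, each under the alternatives that bear on it, 140 values in all. The sign changed in 1 of them: the balance of KPC490 was -0.16 with all genes and 0.55 with the genes at 5 CPM or more. Scaling by DESeq2 size factors or by totals alone, and counts left unrounded, moved the Twist1 range only between 97.3 and 99.3 and left the same 3 regulators and the same 33 list genes past 4-fold. The count of regulators past 4-fold depended on the filter. It was 1 (Zeb2) of 4 with filterByExpr, against 13.8% of all genes, 6 of 9 at 1 CPM or more (27.1% of genes) and 5 of 6 at 2-fold (45.1% of genes). For the lists it was 54 at 1 CPM or more and 64 at 2-fold. The distance between the extreme lines in the balance was 1.15, and became 2.40 with the median over genes and 2.53 with the genes at 5 CPM or more. Leaving out each line in turn gave 2 to 3 regulators, 26 to 32 list genes, a Twist1 range of 55.8 to 97.3, a distance of 1.05 to 1.15 in the balance and an r of Zeb1 with Zeb2 of 0.46 (without KPC469) to 0.92 (without KPC142). No paired analysis was possible because no groups are labelled and each line is 1 library. Depth limits Snai1, Grhl2, Ovol1 and Esrp1, which had at most 29 counts in a line, and intervals cover counting error only, not differences between cultures of a line.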
